A study of Mus musculus with 12 samples.

Results

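Cytochrome P450 genes were followed in the hypothalamus of male mice that drank water or alcohol. The members were all 108 probes of the array, of 41174 non-control probes, whose gene name was Cyp followed by a family number, a subfamily letter and a gene number, with 1 gene of that form left out. They stood for 75 genes of 27827 names in the array files, and each gene was read on its brightest probe by the mean over 12 arrays. This form of name leaves out P450 genes written in another way, such as Cyp51.

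The mice were of the outbred ICR stock, were 3 weeks old at the start and were killed on day 51 by the labels, while the design text of the study gives a later day of drinking. All groups first drank water from both tubes until day 5, after which the water group went on with water and the alcohol mice chose between water and a 5% or 10% alcohol solution. RNA was pooled before hybridization, with 3 mice in each of 3 water pools and 1 to 3 mice in each of 9 alcohol pools, and the labels divide the alcohol pools into 3 of low, 3 of early and 3 of late alcohol drinkers, the latter 6 being the high drinkers of the study. The alcohol pools differed in how many of their mice came from the 5% and from the 10% bottles, and the labels do not tie these numbers to the arrays. Each pool had 1 array, labeled with Cy3 alone.

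A slide carries 4 arrays, so 3 slides were used. Water was measured on slide 1 alone, where the fourth array was that of low drinker pool 1. Both other low pools shared slide 2 with early drinker pools 1 and 2, and early drinker pool 3 shared slide 3 with all late pools. Slide 1 was scanned on another day than slides 2 and 3. Slide and group are thus partly the same, and values within a slide or with the slide as a block are given beside the main differences. The array of low drinker pool 2 stood apart in its dim spots, with a 25th percentile of the signal of 63.2 against 22.3 to 34.0 on the other arrays. Of 9 hypothalamic markers on the array, 8 were well above background on all 12 arrays, among them the neuropeptide genes Hcrt, Pmch, Oxt, Avp and Pomc, and the other, Sim1, was so on 11. In whole tissue, fewer cells of a type and less RNA per cell cannot be told apart.

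Cytochrome P450 enzymes are heme proteins that insert an oxygen atom into their substrates with electrons from a partner reductase. Some make or clear signals, namely steroid hormones, oxysterols, vitamin D, retinoic acid and eicosanoids, and others clear drugs and toxins, mostly in the liver. In the brain, P450 enzymes are known for turning cholesterol into 24-hydroxycholesterol, for making estrogen from androgen, and for clearing retinoic acid.

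The arrays read each gene through an oligonucleotide of 60 bases, and a few of these are shown because results below turn on them. Whole probes are given for Cyp17a1, for Cyp2j13, for the dimmer of the probes of Cyp2j11 and for a probe of Cyp2a4. In the Cyp2j13 and Cyp2j11 probes, the capitals mark a run of 18 bases that both hold.
Cyp17a1: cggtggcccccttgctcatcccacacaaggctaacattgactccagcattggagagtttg
Cyp2j13: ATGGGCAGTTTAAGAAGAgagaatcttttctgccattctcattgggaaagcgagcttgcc
Cyp2j11: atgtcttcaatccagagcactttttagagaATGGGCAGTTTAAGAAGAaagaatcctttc
Cyp2a4: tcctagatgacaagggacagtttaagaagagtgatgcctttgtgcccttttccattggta
By the array files (build mm9), the Cyp17a1 probe lies at chr19:46742594-46743207, the Cyp2j13 probe at chr4:95712305-95723288, the Cyp2j11 probe at chr4:95964317-95964376 and the Cyp2a4 probe at chr7:27098659-27099724. A span over 60 bases means that the probe crosses an intron.

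For 3 genes whose brightest probe lies nearer to the end of the transcript, the first 30 of the 60 bases are shown.
Cyp2c70: cttcttctgtgagcaaaaaggtcctcctgt
Cyp2j11: ggagcaaaaaggaagaaaaagaacaagaag
Cyp2j5: taggatgaatgtgactggggaaatatgaga
These probes lie at chr19:40227969-40228028, chr4:95961442-95961501 and chr4:96296016-96296075 of mm9. Near-identical members of a subfamily can share signal. The probe of Cyp2a5 (chr7:27628169-27628228) and a further, dimmer probe of Cyp2a4 hold the same 28 bases, gtagacttgcagaggatatttcaaaggt, and that dimmer probe in turn overlaps the brightest Cyp2a4 probe (chr7:27099932-27099991) by 20 bases. The values of Cyp2a4 and Cyp2a5 are therefore uncertain as values of separate genes. Among all pairs of the 108 probes, 5 pairs shared a run of 15 or more bases.

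A spot was counted as detected where the scanner software called it well above background. By that call, 35 of the 75 P450 genes (46.7%) were detected on all 12 arrays, 22 on some and 18 (24.0%) on none. Among all 27827 names, 63.2% were detected on all 12 arrays and 16.2% on none. Between 40 and 52 P450 genes were detected on a single array, with 41 to 47 in the water pools, 41 to 47 in the low, 40 to 52 in the early and 45 to 47 in the late drinker pools, so the 4 groups overlapped. The arrays with 40 and 52, early drinker pools 1 and 2, had 66.1% and 77.9% of all names detected.

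**Figure D1:**
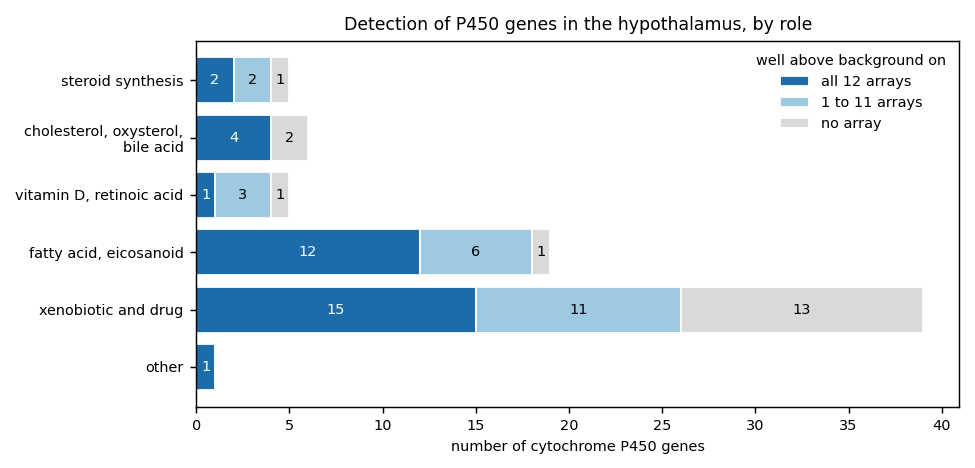
Number of P450 genes (x axis) by role (y axis), divided by how many of the 12 arrays called the brightest probe of the gene well above background. Of 19 genes of the fatty acid and eicosanoid group, 12 were detected on all arrays, against 15 of 39 of the xenobiotic and drug group.

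By role, detection was as follows. In the group that handles fatty acids and eicosanoids (subfamilies 2J and 2U and family 4), 12 of 19 genes were detected on all arrays and only Cyp4a31 on none, and 5 of the 6 Cyp4f genes were detected on all. In the group of cholesterol, oxysterols and bile acids, Cyp46a1, Cyp7b1, Cyp39a1 and Cyp27a1 were detected on all 12 arrays, while Cyp8b1, a liver enzyme of bile acid synthesis, was detected on none. Cyp7a1, the first enzyme of that pathway, was detected on no array by its brightest probe and on 2, those of low drinker pools 1 and 3, by its other probe. In steroid synthesis, Cyp17a1 and Cyp19a1 were detected on all arrays, Cyp11a1 on 8, Cyp11b2 on 2 and Cyp21a1 on none.

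Of the vitamin D and retinoic acid enzymes, Cyp26b1 was detected on all arrays, Cyp27b1 on 10, Cyp24a1 on 9, Cyp26a1 on 1 and Cyp2r1 on none. Of the 39 xenobiotic and drug genes, 15 were detected on all arrays and 13 on none. Within that group, 5 of 7 Cyp2d genes, 2 of 11 Cyp2c genes, 2 of 5 Cyp3a genes and none of the 3 genes of family 1 were detected on all arrays. Cyp1a1, the classic target of the aryl hydrocarbon receptor, was detected on no array.

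Levels below are on a log2 scale on which 0 is the 75th percentile of the intensities of an array, and a level cannot be set against that of another gene because probes differ in brightness. Over the 35 genes detected on all arrays, the SD of a gene over the 12 arrays had a median of 0.21, from 0.07 to 0.96, against a median of 0.12 over the 17589 names detected on all arrays. Cyp4v3, a fatty acid hydroxylase, varied least, and Cyp2f2, known from airway cells, varied most. The share of the variance that lay between the 3 slides had a median of 35.9% for these P450 genes and of 30.1% for all such names. It exceeded 50% in 9 of the 35 P450 genes and in 3980 of the 17589 names.

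**Figure D2:**
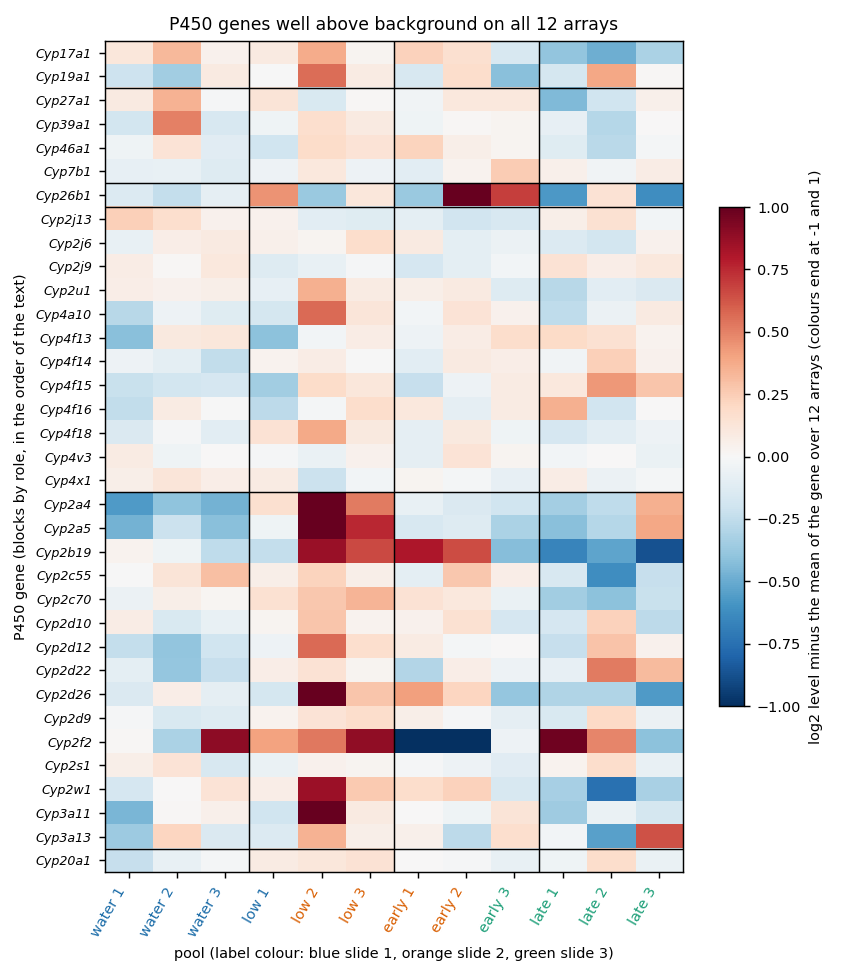
Level of the 35 P450 genes detected on all 12 arrays (rows, by role) in each pool (columns), as log2 level minus the mean of the gene over 12 arrays. Differences beyond 1 in either direction have the end colour, and the column of low drinker pool 2 stands out for Cyp2a4, Cyp2a5, Cyp2d26 and Cyp3a11.

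The comparisons were made with limma, each over all probes that passed the presence filter. Alcohol was set against water (9 arrays against 3), high against low drinkers (6 against 3) and late against early drinkers (3 against 3), with Benjamini-Hochberg adjustment over all probes. No P450 gene had an adjusted p under 0.05 in any of them, and the lowest adjusted p was 0.819, 0.0807 and 0.314. An alternative changed this for high against low drinkers, where 8 P450 genes reached an adjusted p under 0.05 with the scan day as a block and 8 without low drinker pool 1 (limma), beside 2646 and 2255 of all probes. Genes are therefore described at an unadjusted p under 0.05, beside the share of all names that met the same threshold.

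Against water, 8 of the 50 P450 genes tested (16.0%) had an unadjusted p under 0.05, 6 higher and 2 lower with alcohol. Of the 6, Cyp2j11 and Cyp2b10 were well above background in no water pool and Cyp4a29 in 1, and Cyp2b10 was so on 2 of the 12 arrays. Among the 35 genes detected on all arrays, 4 met the threshold, 3 higher and 1 lower. The share over 21482 names was 5.46%, with 3.67% higher and 1.79% lower. The median log2 difference of the 50 genes was 0.09, against 0.02 for all names. With the slide as a block, 1 of the 8 was left, Cyp2j5, and the share over all names was 1.89%, but the alcohol groups are then set against water through low drinker pool 1 alone, in which Cyp2j5 was not well above background.

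High against low drinkers, 8 of 49 P450 genes (16.3%) had an unadjusted p under 0.05, and all 8 were lower in high drinkers. Over 21002 names that share was 14.4%, with 11.3% lower and 3.17% higher, so the share of P450 genes was near that of all names. Their median log2 difference was -0.18, against -0.04 for all names. When the slide was a block, 9 P450 genes passed, 4 of them among the 8, and the share over all names was 12.6%. The count depended on single arrays, and was 4 without low drinker pool 2 and 19 without low drinker pool 1, where the share over all names was 8.28% and 23.1%. In the same comparison all 5 markers of the anterior pituitary tested were lower at an unadjusted p under 0.05, with a median log2 difference of -1.42. Also lower at that threshold were 2 of 6 markers of the choroid plexus and 1 of 4 of the liver (median -0.87). So were 1 of 4 of the cortex (Neurod6) and 1 of 5 of mural cells (Myh11). Higher were 1 of 5 of mural cells (Acta2) and 1 of 9 of the hypothalamus (Trh). The part of these tissues and cells in the P450 values was not tested.

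Late against early drinkers, 12 of 49 P450 genes (24.5%) had an unadjusted p under 0.05, 5 higher and 7 lower in late drinkers. Over 21002 names the share was 12.8%, with 4.87% higher and 7.91% lower. Early and late pools did not overlap for 11 P450 genes, 3 higher and 8 lower in late drinkers, where 20.9% of all names did not overlap. The median log2 difference was -0.12, against -0.02 for all names. When the slide was a block, 3 P450 genes passed, of which 1, Cyp2c70, was among the 12, and the share over all names was 4.42%. Among tissue and cell markers in this comparison, 1 of 5 of the thalamus was higher in late drinkers at an unadjusted p under 0.05 (Tcf7l2, list median 0.78), as were 1 of 5 of astrocytes (Slc1a3), 1 of 9 of the hypothalamus (Sim1) and 2 of 5 of the anterior pituitary, and 1 of 3 of blood (Hba-a1, list median -0.40) and 1 of 6 of the choroid plexus (Clic6) were lower. Their part in the P450 values was not tested. The smallest p of an exact permutation test of 3 against 3 arrays is 0.1, so such a test cannot pass 0.05 here.

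**Figure D3:**
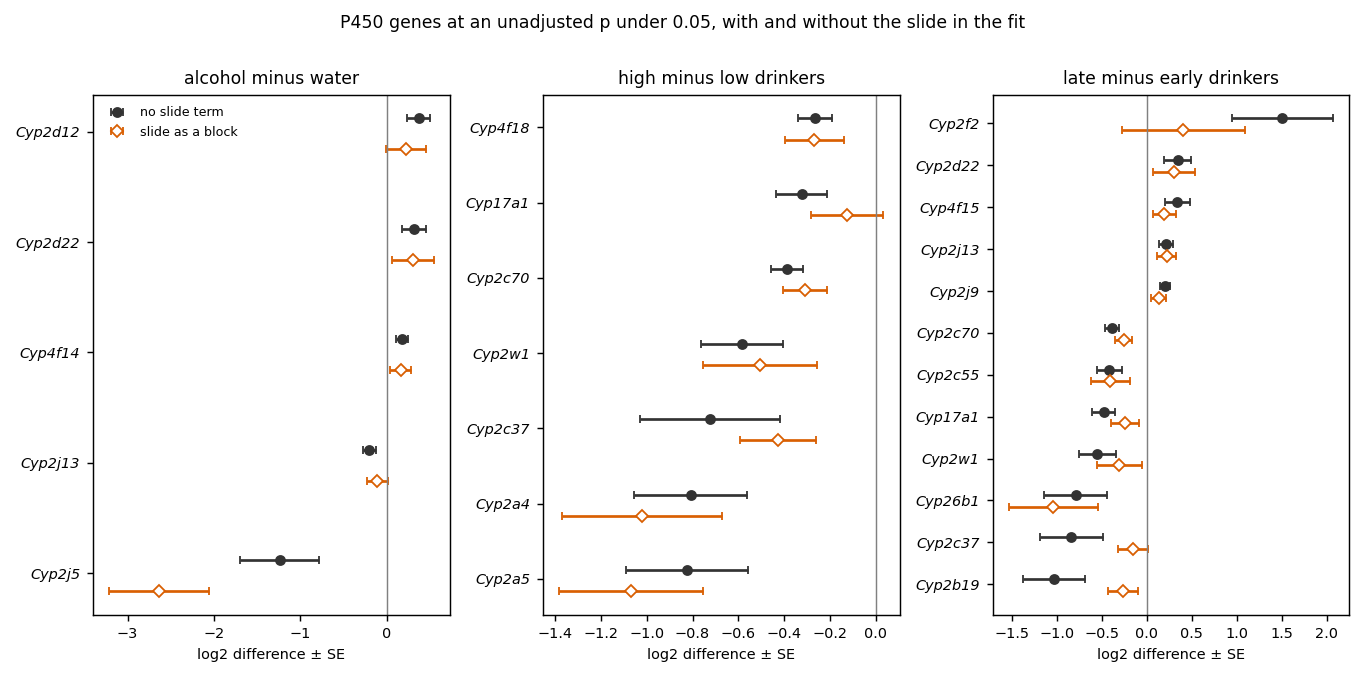
Log2 difference with its SE (x axis) of the named P450 genes at an unadjusted p under 0.05, for alcohol minus water, high minus low and late minus early drinkers. Filled circles are fits without the slide and open diamonds fits with the slide as a block, in which Cyp2b19 and Cyp2c37 move toward 0 in late minus early drinkers. The open diamonds of alcohol minus water rest on low drinker pool 1, the sole alcohol pool on the water slide, where the Cyp2j5 spot was not well above background.

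Among the steroid enzymes, Cyp17a1, which makes androgen precursors, was lower in late drinkers. Its level was -1.70, -1.48 and -1.76 in the water pools, -1.72, -1.44 and -1.78 in the low, -1.58, -1.65 and -1.97 in the early and -2.20, -2.30 and -2.12 in the late drinker pools. All 3 late pools lay below the other 9 arrays. The log2 difference was -0.48 ± 0.13 (SE) for late against early (limma, unadjusted p = 0.0041, adjusted p = 0.314) and -0.32 ± 0.11 for high against low drinkers (unadjusted p = 0.0156). Slide 3 held all late pools and the lowest of the early pools. The mean of the late pools minus early drinker pool 3 was -0.24 within that slide. With the slide as a block, the late against early difference was -0.24 ± 0.16 (limma, unadjusted p = 0.166) and the high against low difference -0.12 ± 0.16 (unadjusted p = 0.454).

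Cyp19a1, the aromatase that makes estrogen, did not differ at an unadjusted p of 0.05 in any of the 3 comparisons. Its level was -3.37, -3.51 and -3.07 in water, -3.17, -2.60 and -3.08 in low, -3.32, -2.99 and -3.58 in early and -3.34, -2.77 and -3.15 in late drinker pools, and all groups overlapped. Cyp11a1, which makes pregnenolone from cholesterol, was detected in all 3 water pools and in 5 of 9 alcohol pools, with a log2 difference of -0.03 ± 0.33 against water. Cyp11b2, aldosterone synthase, was detected only in low drinker pool 2 and 1 early drinker pool, and both lay on slide 2.

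Of the sterol enzymes, none of the 4 that were detected on all arrays had an unadjusted p under 0.05 in any comparison on its brightest probe. Cyp46a1, which makes 24-hydroxycholesterol in neurons, was at -1.29, -1.11 and -1.35 in water, -1.44, -1.06 and -1.10 in low, -1.02, -1.18 and -1.21 in early and -1.36, -1.51 and -1.26 in late drinker pools. The early and late pools did not overlap, with a log2 difference of -0.24 ± 0.12 (limma, unadjusted p = 0.0662). Within slide 3 that difference was -0.16. Cyp7b1, which clears oxysterols and neurosteroids, lay between 0.42 and 0.47 in water and between 0.44 and 0.80 in the alcohol pools, with a log2 difference of 0.12 ± 0.07 (limma, unadjusted p = 0.0951).

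Cyp27a1, the sterol 27-hydroxylase, had a log2 difference against water of -0.19 ± 0.12 on that probe, and Cyp39a1, an oxysterol 7-hydroxylase, of -0.07 ± 0.13. The other probe of Cyp39a1, also well above background on all 12 arrays, gave -0.20 for high against low drinkers (limma, unadjusted p = 0.0231), where the brightest gave -0.13. On the brightest probes of these 4 enzymes the log2 differences spanned -0.19 to 0.12 for alcohol against water, -0.13 to 0.05 for high against low and -0.26 to -0.03 for late against early drinkers. The last range was below 0 for all 4 genes, and none of them passed the threshold.

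Cyp26b1, the retinoic acid hydroxylase of the brain, varied widely between pools of 1 group. Its level was -1.83, -1.93 and -1.78 in water, -1.24, -2.07 and -1.58 in low, -2.07, -0.70 and -1.01 in early and -2.27, -1.55 and -2.31 in late drinker pools. The water pools lay close together, while early drinker pools 2 and 3 were the highest of the 12. Late and early pools overlapped, with a log2 difference of -0.79 ± 0.35 (limma, unadjusted p = 0.0487, adjusted p = 0.400) that became -1.04 ± 0.49 with the slide as a block (unadjusted p = 0.0689). Without early drinker pool 2 it was -0.51 and without early drinker pool 1 -1.19.

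Of 5 markers of meninges and fibroblasts, all detected on all arrays, none passed the threshold for late against early drinkers, and their median log2 difference was -0.21. Their summed log2 level was 3.40 and 3.37 in early drinker pools 2 and 3, 2.70 in early drinker pool 1 and 2.79 to 3.18 in the late pools, and 2.92 to 3.07 in water. Aldh1a2, which makes retinoic acid and is known from the meninges, had a log2 difference of -0.79 ± 0.29 for late against early drinkers (limma, unadjusted p = 0.0216). The part of these cells in the Cyp26b1 values was not tested. Cyp27b1, which activates vitamin D, had a log2 difference of -0.30 ± 0.15 against water (limma, unadjusted p = 0.0731), and Cyp24a1, which clears it, of -0.30 ± 0.26.

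**Figure D4:**
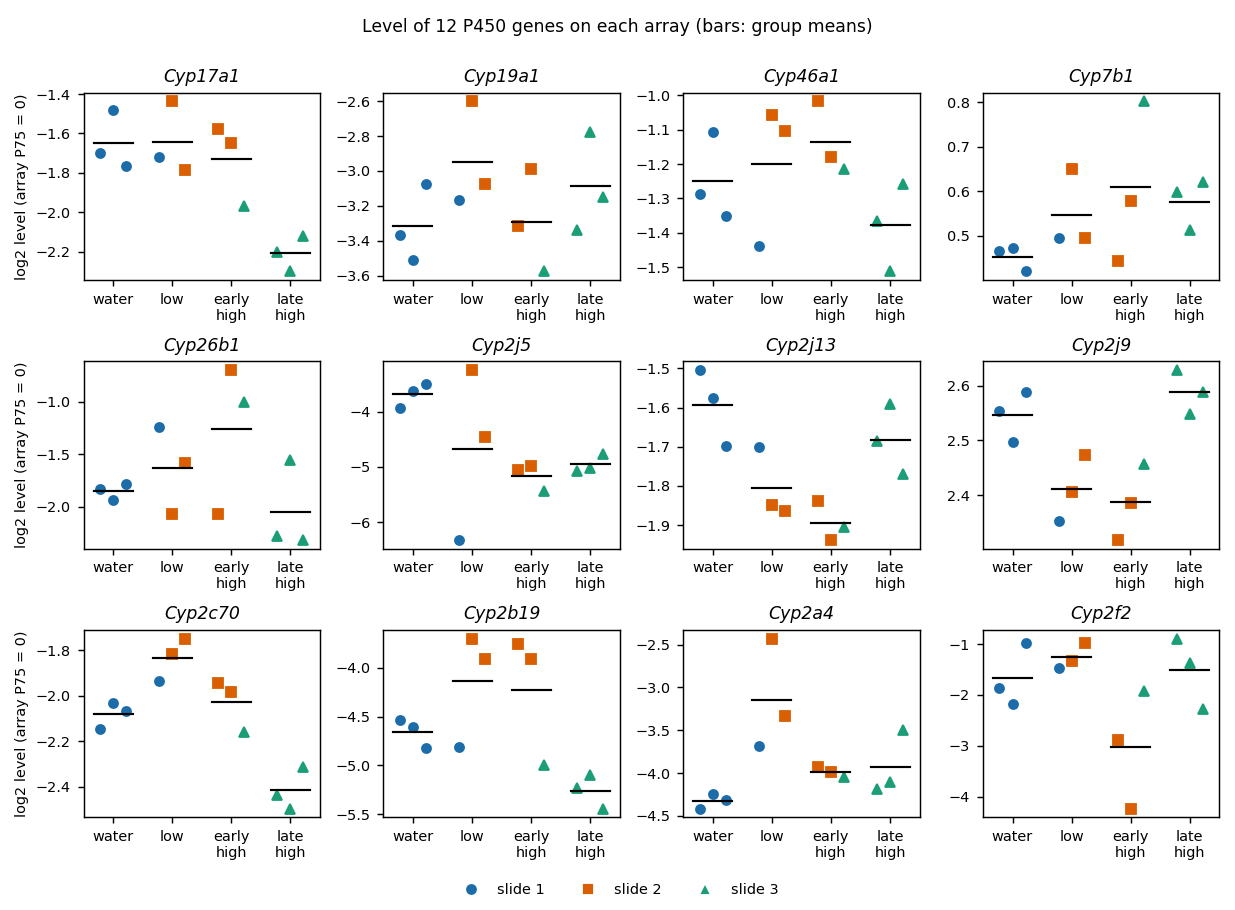
Level (y axis, log2 intensity with the 75th percentile of the array at 0) of 12 P450 genes in each pool, by group (x axis), with the marker and colour giving the slide and the bar the group mean. All 3 late pools of Cyp17a1 and Cyp2c70 lie below the other 9, and the 4 slide 2 pools of Cyp2b19 lie above the other 8.

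Among the fatty acid and eicosanoid enzymes, Cyp2j genes differed from each other. Cyp2j5, an arachidonic acid epoxygenase known from kidney and liver, was at -3.93, -3.63 and -3.51 in water. It was at -6.33, -3.25 and -4.46 in low, -5.06, -4.99 and -5.43 in early and -5.07, -5.02 and -4.76 in late drinker pools. All 6 high drinker pools lay below the 3 water pools, and among the low drinkers pool 2 lay above them. The log2 difference against water was -1.24 ± 0.46 (limma, unadjusted p = 0.0192, adjusted p = 0.819; two-sided exact permutation p = 0.0364).

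The Cyp2j5 probe was well above background in all 3 water pools and in 7 of 9 alcohol pools. The exceptions were early drinker pool 1 and low drinker pool 1, whose levels are therefore only upper bounds, and with such spots missing the log2 difference was -1.02 ± 0.39 (limma, unadjusted p = 0.0248). Low drinker pool 1 was the sole alcohol pool on the slide of the water pools, so no difference within that slide is given. A dimmer probe of the gene was well above background on no array and gives no second reading.

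Cyp2j13 was also lower with alcohol, at -1.50, -1.58 and -1.70 in water, -1.70, -1.85 and -1.87 in low, -1.84, -1.94 and -1.90 in early and -1.68, -1.59 and -1.77 in late drinker pools. The groups overlapped by late drinker pools 1 and 2, and the other alcohol pools lay below all water pools. The log2 difference was -0.20 ± 0.08 against water (limma, unadjusted p = 0.0225; exact permutation p = 0.0227) and 0.21 ± 0.07 for late against early drinkers (unadjusted p = 0.0181), whose pools did not overlap. The slide as a block gave -0.11 ± 0.12 and 0.22 ± 0.11. Its other 2 probes were each well above background on 1 array.

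Cyp2j9, which is abundant in brain, was higher in late than in early drinkers. The level was 2.55, 2.50 and 2.59 in water, 2.35, 2.41 and 2.47 in low, 2.32, 2.39 and 2.46 in early and 2.63, 2.55 and 2.59 in late drinker pools. The low and early pools lay below all water and late pools. The log2 difference for late against early drinkers was 0.20 ± 0.06 (limma, unadjusted p = 0.0064, adjusted p = 0.314), within slide 3 it was 0.13, and with the slide as a block 0.13 ± 0.08.

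Cyp2j11 was chosen after its values were seen. Its brightest probe was not well above background in any water pool and was so in 8 of 9 alcohol pools, so no fold is given (limma, unadjusted p = 0.0050, adjusted p = 0.819). The level was -6.37, -5.92 and -6.03 in water, -5.64, -2.68 and -3.65 in low, -4.37, -4.54 and -4.45 in early and -5.08, -4.64 and -4.98 in late drinker pools. All alcohol pools lay above all water pools, which 1.42% of all names did in either direction, and low drinker pool 1, on the water slide, was the lowest of them. That pool was the alcohol pool not well above background, and the highest, low drinker pool 2, was the array with raised dim spots. With the slide as a block, which rests on low drinker pool 1, the unadjusted p was 0.443 (limma). The probe printed above with capitals, well above background in all 3 water pools, gave a log2 difference of 0.34 (unadjusted p = 0.108), and its groups overlapped.

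Of the Cyp4 genes, Cyp4f14, which inactivates leukotrienes, was at -0.01, -0.05 and -0.20 in water and from -0.06 to 0.28 in the alcohol pools, with a median of 0.09. The groups overlapped by early drinker pool 1 alone, with a log2 difference of 0.18 ± 0.07 (limma, unadjusted p = 0.0229; exact permutation p = 0.0182), and with the slide as a block it was 0.16 ± 0.12 (limma, unadjusted p = 0.208). Cyp4f15 was at 0.07, 0.11 and 0.12 in water, -0.06, 0.47 and 0.40 in low, 0.06, 0.24 and 0.37 in early and 0.40, 0.72 and 0.57 in late drinker pools. It was higher in late than in early drinkers, with a log2 difference of 0.34 ± 0.14 (unadjusted p = 0.0375) that became 0.19 ± 0.13 with the slide as a block (unadjusted p = 0.171). Of its variance over the 12 arrays, 67.3% lay between slides, and early drinker pool 3, on the slide of the late pools, was the highest early pool.

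Cyp4f18, a leukocyte enzyme, was lower in high than in low drinkers. It was at -1.77, -1.53 and -1.82 in low drinkers and from -2.08 to -1.82 in high drinkers, with a median of -1.98, and early drinker pool 2 met the lowest low pool. The water pools, at -2.06, -1.93 and -2.02, lay within the range of the high drinkers and below all low pools. The log2 difference was -0.26 ± 0.07 (limma, unadjusted p = 0.0053, adjusted p = 0.193; exact permutation p = 0.0238), and with the slide as a block it was -0.27 ± 0.13. Cyp4v3 and Cyp4x1, the latter a brain fatty acid epoxygenase, varied little, with an SD of 0.07 and 0.09 over the 12 arrays. Cyp4a29 and Cyp4a14 passed the threshold in 1 comparison each, but were well above background on 8 and 4 arrays.

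Of the xenobiotic and drug genes, Cyp2c70, which makes muricholic acids in mouse liver, had the lowest p of any P450 gene. Its level was -2.15, -2.03 and -2.07 in water, -1.94, -1.82 and -1.75 in low, -1.95, -1.98 and -2.16 in early and -2.44, -2.50 and -2.31 in late drinker pools. All high drinker pools lay below all low pools, which 2.81% of all names did, and all late pools below all others. The log2 difference was -0.39 ± 0.07 for high against low (limma, unadjusted p = 0.0002, adjusted p = 0.0807) and -0.39 ± 0.08 for late against early drinkers (unadjusted p = 0.0007, adjusted p = 0.314). With the slide as a block the differences were -0.31 ± 0.10 (unadjusted p = 0.0117) and -0.26 ± 0.10 (unadjusted p = 0.0273), and within slides 2 and 3 they were -0.18 and -0.26.

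The order of the groups for Cyp2c70 was low, early, water and late by mean level, and the early and water pools overlapped. Against water, the log2 difference of the 9 alcohol pools was -0.01 ± 0.15. Leaving out any 1 array kept both drinker differences at an unadjusted p under 0.05, with log2 differences of -0.44 to -0.35 for high against low and -0.45 to -0.34 for late against early drinkers.

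Cyp2b19 and Cyp2c37 followed the slide. Cyp2b19, a keratinocyte epoxygenase, was between -3.92 and -3.70 in the 4 pools of slide 2 and between -5.44 and -4.54 in the 8 others, so that 94.8% of its variance lay between slides. Its late against early log2 difference of -1.03 ± 0.34 (limma, unadjusted p = 0.0138) became -0.26 ± 0.17 with the slide as a block. Cyp2c37, an arachidonic acid hydroxylase of the liver, was at -4.34 to -3.90 on slide 2 and at -5.61 to -5.12 elsewhere, where water pool 1 and late drinker pool 3 were not well above background and give only upper bounds. Its log2 differences of -0.72 ± 0.31 for high against low and -0.84 ± 0.35 for late against early became -0.43 ± 0.17 and -0.15 ± 0.17 with the slide as a block, and without low drinker pool 1 the former was -1.12.

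Cyp2a4 and Cyp2a5, a steroid hydroxylase and a coumarin hydroxylase of the liver, moved together across the arrays. Cyp2a4 was at -4.42, -4.25 and -4.32 in water, -3.69, -2.43 and -3.33 in low, -3.92, -3.99 and -4.04 in early and -4.19, -4.10 and -3.49 in late drinker pools. Low drinker pool 2 was the highest. Alcohol and water pools overlapped on the other probes of Cyp2a4. On its brightest probe all alcohol pools lay above all water pools, which 1.42% of all names did in either direction. The difference against water was 0.64 ± 0.31 on that probe (limma, unadjusted p = 0.0603). The log2 difference for high against low drinkers was -0.81 ± 0.25 (limma, unadjusted p = 0.0084, adjusted p = 0.219; exact permutation p = 0.0238), and without low drinker pool 2 it was -0.45. Cyp2a5 had a difference of -0.82 ± 0.27, and of -0.50 (limma, unadjusted p = 0.0632) without low drinker pool 2. The differences of Cyp2a4 and Cyp2a5 with the slide as a block were -1.02 ± 0.35 and -1.07 ± 0.31.

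Low drinker pool 2 was also the array with raised dim spots and with the highest liver markers. Of 7 liver markers on the array none was well above background on all 12 arrays, and Alb, the albumin gene, was so on 1 array. Their summed log2 level was -1.22 in low drinker pool 2, -2.57 in low drinker pool 3 and -4.34 to -2.82 in the others, and in the water pools it was -4.34 to -3.89. The part of liver RNA or of dim signal in the Cyp2a values was not tested. The probe of Cyp2a4 printed above, which is well above background on all 12 arrays, gave a log2 difference of -0.62 for high against low drinkers (unadjusted p = 0.0165). For late against early drinkers that probe gave -0.67 (limma, unadjusted p = 0.0237), where the brightest gave 0.06. The remaining probe, well above background on 10 arrays, gave -0.06 there (limma, unadjusted p = 0.895). For high against low drinkers it gave -0.74 (limma, unadjusted p = 0.0659). The probes of Cyp2a4 thus disagree for late against early drinkers.

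Cyp2w1 and Cyp2c55 were lower in late than in early drinkers. In water and low drinker pools Cyp2w1 was between -4.33 and -3.31 and Cyp2c55 between -3.76 and -3.46, above all late pools. Cyp2w1 was at -3.98, -3.93 and -4.32 in early and -4.49, -4.91 and -4.49 in late drinker pools, with a log2 difference of -0.55 ± 0.21 (limma, unadjusted p = 0.0242), and for high against low drinkers it was -0.58 ± 0.18. Cyp2c55, an epoxygenase of the gut, was at -3.85, -3.49 and -3.69 in early and -3.92, -4.38 and -3.99 in late drinker pools, with a difference of -0.42 ± 0.14 (unadjusted p = 0.0136). Neither gene overlapped between early and late pools, and within slide 3 the differences were -0.31 and -0.40. With the slide as a block these were -0.31 ± 0.25 and -0.40 ± 0.22, and the high against low difference of Cyp2w1 was -0.50 ± 0.25 (limma, unadjusted p = 0.0767). Without late drinker pool 2 the Cyp2c55 difference was -0.27 (limma, unadjusted p = 0.0531), and without low drinker pool 2 the high against low difference of Cyp2w1 was -0.35.

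Of the Cyp2d genes, Cyp2d12 was at -2.73, -2.88 and -2.68 in water and from -2.72 to -1.92 in the alcohol pools, with a median of -2.44. The log2 difference was 0.37 ± 0.13 (limma, unadjusted p = 0.0172; exact permutation p = 0.0273), and with the slide as a block 0.22 ± 0.23. Cyp2d22 had a difference of 0.32 ± 0.14 against water and of 0.34 ± 0.15 for late against early drinkers. These became 0.30 ± 0.24 (limma, unadjusted p = 0.246) and 0.30 ± 0.23 (unadjusted p = 0.238) with the slide as a block. The other 2 probes of Cyp2d22 gave -0.02 and 0.27 against water. For late against early drinkers they gave 0.10 and 0.01 (limma, unadjusted p = 0.358 and 0.963). Without late drinker pool 2 the late against early difference of the brightest probe was 0.21 (limma, unadjusted p = 0.186).

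Cyp2f2 had the widest spread, at -1.85, -2.18 and -0.97 in water, -1.46, -1.34 and -0.98 in low, -2.90, -4.24 and -1.92 in early and -0.89, -1.37 and -2.28 in late drinker pools. Early drinker pools 1 and 2 were the lowest of the 12, and early and late pools overlapped. The log2 difference for late against early drinkers was 1.51 ± 0.56 (limma, unadjusted p = 0.0241). Without early drinker pool 2 it was 0.89 (unadjusted p = 0.0938). With the slide as a block it was 0.41 ± 0.68, within slide 3 0.41, and within slide 2 the early pools minus the low pools gave -2.41.

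Of 5 markers of the anterior pituitary, 2 were higher in late than in early drinkers at an unadjusted p under 0.05, Cga and Tshb, and Lhb had a log2 difference of -0.21. Their summed log2 level, with 3 of the 5 detected on all arrays, was 1.50 and -0.13 in early drinker pools 1 and 2, 1.75 in early drinker pool 3, 1.97 to 2.69 in late, 2.79 to 3.23 in low and 1.70 to 3.63 in water pools. The part of this tissue in the Cyp2f2 values was not tested.

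Of the 24 named differences, 7 kept an unadjusted p under 0.05 without any 1 of the 12 arrays. These were Cyp2c70 in both drinker comparisons, Cyp17a1 and Cyp2j9 for late against early drinkers, and Cyp2a4, Cyp2w1 and Cyp4f18 for high against low drinkers. The other 17 lost it without at least 1 array. None of the 5 for alcohol against water was among the 7, and Cyp2j5 and Cyp2j13 lost it without either of 2 water pools, Cyp2d12 without water pool 2, Cyp4f14 without water pool 3 and Cyp2d22 without any 1 of 7 arrays.

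The partners of the P450 enzymes were taken from lists. Of 52 genes listed as electron donors, heme enzymes, regulators and neighbouring enzymes, 51 were on the array and 44 were detected on all 12 arrays, among them all 7 electron donors. None of 49 tested had an unadjusted p under 0.05 for alcohol against water. For high against low drinkers 3 of 48 were higher and 6 lower, where 14.4% of all names passed, and for late against early drinkers 4 were higher and 4 lower, where 12.8% of all names passed.

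Among the partners that differed, Uros, an enzyme of heme synthesis, was lower in late than in early drinkers by a log2 difference of -0.32 ± 0.07 (limma, unadjusted p = 0.0011), and Blvrb, which reduces biliverdin, was higher by 0.47 ± 0.12. Rxra, the partner of many nuclear receptors, and Ppara, which drives Cyp4a genes in liver, were higher in late drinkers by 0.29 ± 0.11 and 0.30 ± 0.11. The slide as a block gave -0.35 for Uros, 0.62 for Blvrb, 0.36 for Rxra and 0.19 for Ppara. Por, the reductase that passes electrons to the microsomal P450 enzymes, lay between 3.05 and 3.49 over the 12 arrays and did not pass the threshold. The median log2 difference of the partners was 0.04, -0.03 and -0.03 in the 3 comparisons.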

How the data were processed

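Hypothalamic RNA of 12 pools was hybridized to 1-color Agilent arrays of the mouse genome. The authors deposited the scanner output of Agilent Feature Extraction (10.5.1.1 in the file headers), whose signal intensities are background-corrected, on a linear scale and not scaled between arrays. They also deposited a table of these intensities. The scanner flags (not counted as values) mark spots well above background.

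Here, intensities were taken to log2 and the 75th percentile over the array's 43379 spots that are no controls was subtracted. Spots flagged as non-uniform were dropped, replicate spots were averaged, and tests further left out any spot whose signal was under 2 times its error. A probe was tested with values in over 50% of the arrays of each group compared. limma 3.58.1 in R 4.3.3 (lmFit and eBayes) compared alcohol with water in a fit of 2 groups, and the other pairs in a fit of 4 groups, with p-values adjusted by Benjamini-Hochberg over all probes. Exact permutation tests were two-sided, over the same arrays. The smallest p is 0.00455 for 3 against 9, 0.0119 for 3 against 6 and 0.1 for 3 against 3 arrays. Pools of different mice were replicates of a group. The number of arrays limits the precision.

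Genes named are all members of the steroid, sterol, vitamin D and retinoic acid groups, those at an unadjusted p under 0.05 that were detected on all arrays of a group compared, and the 5 with the largest SD among those detected on all arrays. The members, the lists and the tests were chosen with earlier results of these data known.

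Gene names are those of the array files, and 70 of the 75 brightest probes matched RefSeq (GRCm38.p6, names alone). Sequences and mm9 positions come from the array files. Pools were told apart by their titles, and no pair of arrays held identical values. Alternatives covered background correction, scaling, filters, slide, scan day, the replicate number, the methods' t-test, each array left out and the choice of probe. On simulated data with 200 probes moved by 1 on the log2 scale, 156 passed an adjusted p of 0.05 for alcohol against water, 156 for high against low and 149 for late against early drinkers, with 9 unmoved probes each. Figures were drawn with matplotlib 3.10.9.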

Additional observations from a re-analysis of the deposited data

Results flagged for a closer look

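Of 22 sets of values over the 9 alcohol pools, 1 held a value far from the others, about as many as the 1 in 20 that chance gives. Cyp2a4 was at -2.43 in low drinker pool 2, and the nearest pool was at -3.33, a gap that took 0.512 of the whole range. The same array had the highest 25th percentile of the signal, 63.2.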

How the results depend on the processing

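Of 624 values of the 24 named differences under the alternatives, 497 kept their direction and an unadjusted p under 0.05, 125 kept only the direction and 2 reversed. The reversals were those of Cyp2j13 with the mean of its 3 probes, at 0.86 for alcohol against water and -0.39 for late against early drinkers, where each of the 2 added probes was well above background on 1 array. For alcohol against water, the 8 P450 genes became 5 with dim spots missing, 1 with the slide as a fixed block (Cyp2j5, through low drinker pool 1 alone, where it was not well above background), 2 with it as a random block and 2 with the scan day as a block, while the share of all names, 5.46% as reported, became 5.23%, 1.89%, 1.59% and 1.54%. For high against low drinkers, the 8 became 14 with normexp, 19 with no signal/noise filter, 19 with the scan day as a block and 4 by the methods' t-test, while the share of all names, 14.4% as reported, became 19.9%, 20.5%, 23.8% and 9.16%. For late against early drinkers, the 12 became 3 with the slide as a fixed block, of which 1 was among the 12, and 7 by the methods' t-test, with 4.42% and 11.9% of all names against 12.8% as reported. That t-test gave 6 for alcohol against water, and no P450 gene passed after Benjamini-Hochberg adjustment. The cause of these moves was not tested.

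Leaving out 1 array gave 2 (without water pool 2, with 3.77% of all names) to 10 genes (5.15%) for alcohol against water, 4 (without low drinker pool 2, 8.28%) to 19 (without low drinker pool 1, 23.1%) for high against low, and 4 (without early drinker pool 2, 8.68%) to 15 (14.8%) for late against early drinkers. Further counts beyond 1.5 times were 5 without water pool 3 (3.39%) and 5 without low drinker pool 3 (4.73%) for alcohol against water, and 7 without early drinker pool 1 (7.18%) and 5 without late drinker pool 2 (8.68%) for late against early drinkers. Without scaling, the median of all probes moved by 0.13 for high against low and 0.15 for late against early drinkers, and the split of higher and lower P450 genes became 1 and 6, and 6 and 4. Genes detected on all arrays were 35, and 35 to 36 with 1 array left out, 51 for signals that were positive and significant, 46 by the signal/noise ratio and 37 with any probe of the gene.

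The replicate numbers do not pair the pools. The correlations of same-numbered pools were -0.09 to 0.18, and the replicate block gave 7, 11 and 10 genes in the 3 comparisons, with 5.35%, 14.8% and 12.2% of all names.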
